A study of Mus musculus with 19 samples.

Results

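A set of 10 genes that identify T lymphocytes were followed in mouse lung across 4 dose groups of a polycyclic aromatic hydrocarbon mixture. They were Cd3d, Cd3e, Cd3g, Cd4, Cd8a, Cd8b1, Cd28, Lck, Il7r and Cd5. A gene was taken as measured where the RefSeq transcript that an array probe was designed for carries its symbol, which gave 12 probes for the 10 genes, of 20660 gene symbols on the array. All 10 genes passed the filter on dim signals with at least 1 probe, as did 14735 of all symbols. The set was drawn up by name, with earlier results of these data known.

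The animals were male MutaTMMouse, about 12 weeks old, a transgenic line that carries lacZ reporter genes in every cell, controls included. They received the mixture of 8 polycyclic aromatic hydrocarbons (PAHs) in olive oil by oral gavage on each of 28 days, and lung was frozen 72 h after the final dose. Per the labels there were 5 vehicle mice given olive oil alone (D0), 4 mice at 15 (D1), 5 at 30 (D2) and 4 at 60 (D3) mg benzo[a]pyrene (BaP) equivalents per kg body weight per day. Each value is a log2 ratio of lung RNA in the red dye over a common reference RNA from 11 mouse cell lines in the green dye, so a change of 1 log2 unit is a 2-fold difference. The RNA came from random sections of lung tissue, not sorted cells (the methods name the right lobe, the labels only lung), so a change in the number of T cells and a change in RNA per T cell cannot be told apart.

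T cells read antigen through a receptor that signals by the CD3 chains, whose γ, δ and ε subunits are encoded by Cd3g, Cd3d and Cd3e. The coreceptors CD4, on helper cells, and CD8, an αβ dimer made from Cd8a and Cd8b1 on cytotoxic cells, bring the kinase LCK to the receptor. CD28 adds a costimulatory signal, CD5 dampens signalling, and the α chain of the interleukin-7 receptor (Il7r) carries the survival signal of resting T cells. Il7r and CD8α are also found on other lymphoid and some dendritic cells, and CD4 on some myeloid cells.

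The 3 CD3 genes lie together on chromosome 9, and the start sites of Cd3g and Cd3d stand head to head, 1355 bases apart, with Cd3e 27825 bases from Cd3d. Their upstream sequence is shown because the mean ratios of Cd3d and Cd3g were higher at D2 and D3 than at D0 while that of Cd3e was near its D0 level. Il7r is shown because it was the gene with the lowest adjusted p at the top dose. Each line gives the 250 bases before the RefSeq start site, 5′ to 3′ on the gene's own strand (build GRCm38.p6). Capitals mark matches, on either strand, to an ETS motif (AGGAAG), an E box (CANNTG) or a GATA motif (AGATAA).
Cd3d, chr9:44981536-44981785, plus strand: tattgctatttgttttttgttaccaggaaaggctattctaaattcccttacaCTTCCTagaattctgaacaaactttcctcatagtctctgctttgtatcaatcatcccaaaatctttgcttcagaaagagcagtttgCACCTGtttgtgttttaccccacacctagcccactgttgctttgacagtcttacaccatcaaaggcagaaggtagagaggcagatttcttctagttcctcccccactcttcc
Cd3g, chr9:44980432-44980681, minus strand: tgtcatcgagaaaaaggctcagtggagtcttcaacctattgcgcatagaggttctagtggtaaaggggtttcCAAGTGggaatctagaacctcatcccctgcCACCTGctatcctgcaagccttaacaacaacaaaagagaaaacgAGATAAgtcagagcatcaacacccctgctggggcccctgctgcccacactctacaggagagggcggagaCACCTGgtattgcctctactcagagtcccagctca
Cd3e, chr9:45009612-45009861, minus strand: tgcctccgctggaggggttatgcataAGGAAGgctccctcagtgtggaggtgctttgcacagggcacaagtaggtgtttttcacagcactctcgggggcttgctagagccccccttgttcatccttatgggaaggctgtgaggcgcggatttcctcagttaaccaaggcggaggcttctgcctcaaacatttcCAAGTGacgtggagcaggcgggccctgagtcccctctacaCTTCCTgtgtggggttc
Il7r, chr15:9529877-9530126, minus strand: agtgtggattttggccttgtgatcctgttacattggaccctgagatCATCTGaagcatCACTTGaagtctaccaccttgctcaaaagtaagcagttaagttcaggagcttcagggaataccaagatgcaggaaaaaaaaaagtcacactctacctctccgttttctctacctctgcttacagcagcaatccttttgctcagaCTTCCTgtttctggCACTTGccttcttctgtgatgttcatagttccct
All 4 windows held an E box, as did 66.2% of the 32851 upstream windows of the same length in the RefSeq table. An ETS motif was found in Cd3d, Cd3e and Il7r but not in Cd3g, against 29.5% of all windows, and the GATA motif in Cd3g alone of the 4, against 9.99%. The core motif bound by the aryl hydrocarbon receptor, which PAHs activate (GCGTG, 28.2% of all windows), and a RUNX motif (TGTGGT, 14% of all windows) had no match in these 4 windows. These motifs do not overlap one another in the sequences shown. Of the 10 genes, 7 had an entry in this table.

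The red signal of the probe that describes each gene was well above background in all 18 mice. Median red signals ran from 150.2 for Cd8a to 1892 for Lck, over a local background of 74.25 to 79 for these probes. The green reference signal of Il7r and of Cd8a was well above background in 0 of 18 mice, and that of Cd8b1 in 16 of 18, so their ratios have a denominator near background. Cd4 and Cd8a each had a further probe. The dim probe of Cd4 was well above background in 10 mice, and the dim probe of Cd8a in 4, which kept it out of the tests. The mean log2 ratio of this dim Cd8a probe was 0.28 in D0, 0.23 in D1, 0.09 in D2 and 0.33 in D3.

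The arrays came from 3 slides, and each slide held every dose group. The green signal of Cd4 differed by slide. It lay between 1167 and 1476 in the 8 mice of slide 1 and between 347.5 and 493 in the 10 mice of the other slides. The same RNA reference is named for all of them, and of the other 9 genes only Cd3e had green ranges that did not overlap between these slides, at 2332 to 2770 and 1849 to 2264. Whether this difference in the reference moved the Cd4 ratio was not tested, and Cd4 is given within slides below. Array column on the slide followed dose, so these cannot be told apart, and no array had its dyes swapped.

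Among the CD3 chains, Cd3d and Cd3g had higher mean ratios at D2 and D3 than at D0, and the mean of Cd3e was near its D0 level. None of these differences passed the adjusted p in the model without a slide term. The log2 ratio of Cd3d was 2.38, 1.79, 2.46, 2.39 and 2.34 in the 5 D0 mice and 2.78, 2.18, 2.43 and 2.39 in the 4 D1 mice. It was 2.68, 2.58, 2.63, 3.22 and 3.07 at D2 and 2.54, 2.96, 3.23 and 2.49 at D3. Every D2 and every D3 mouse stood above every D0 mouse, while D1 overlapped D0. The log2 change from D0 was 0.18 at D1, 0.57 ± 0.17 (SE) at D2 and 0.53 ± 0.18 at D3, with adjusted p of 0.634, 0.0832 and 0.0536 in limma after Benjamini-Hochberg adjustment over 30999 probes. With slide as a block the D3 change was 0.54 with an adjusted p of 0.0243, which passed the adjusted p and stayed under 1.5-fold.

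For Cd3g, D0 mice ran from -1.19 to -0.62 (median -0.68) and D3 mice from -0.62 to -0.02 (median -0.41), so the groups overlapped at 1 D3 mouse. Its change was 0.21, 0.38 and 0.44 at D1, D2 and D3, with an adjusted p of 0.072 at D3, and 0.0494 (change 0.44) with slide as a block. Cd3e stayed between -0.94 and -0.59 in D0, -1.04 and -0.67 in D1, -0.95 and -0.69 in D2, and -1.05 and -0.49 in D3. All 4 groups overlapped for Cd3e. The D3 change was 0.05, and its 95% confidence interval of -0.18 to 0.28 did not reach the 1.5-fold line (log2 0.585). Within the same mouse, Cd3d minus Cd3e averaged 3.09 ± 0.27 (SD, n = 5) in D0 and 3.58 ± 0.28 (n = 4) in D3, while Cd3d minus Cd3g went from 3.08 ± 0.15 to 3.17 ± 0.06. The offset of such a difference has no meaning between probes, and only its shift between groups does.

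**Figure D1:**
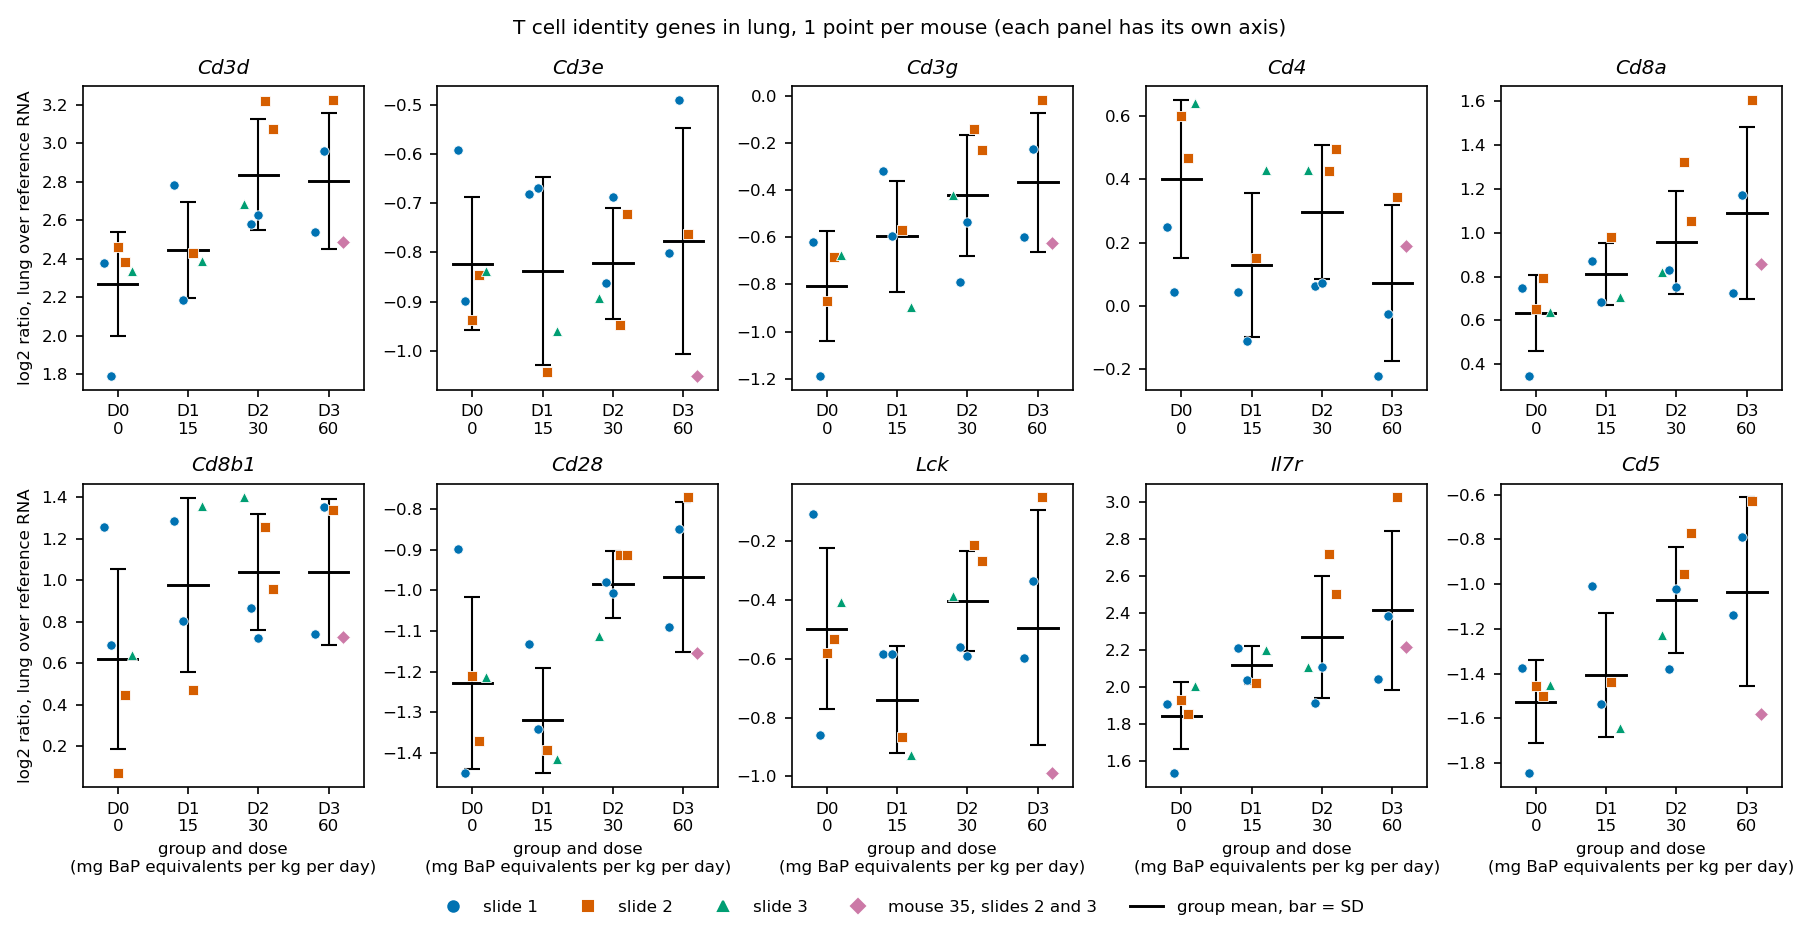
Log2 ratio of lung over reference RNA for each of the 10 genes (vertical axes, scaled per gene) in D0, D1, D2 and D3 with the dose in mg BaP equivalents per kg per day, 1 point per mouse with marker by slide, and lines and bars for group mean and SD. D3 mice of Cd3d and Il7r all lie above the D0 mice, D3 groups of Cd3e and Lck span their D0 groups, and within each group the Cd4 points of slide 1 lie below those of the other slides.

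The coreceptor genes differed in direction. The log2 ratio of Cd8a was 0.75, 0.35, 0.65, 0.79 and 0.64 in D0, and 0.72, 1.17, 1.61 and 0.86 in D3. Of the 4 D3 mice, 3 were above every D0 mouse, and mouse 34 was the highest of all 18. The change in Cd8a was 0.17, 0.32 and 0.45 ± 0.15 over the doses, with an adjusted p of 0.0577 at D3. With slide as a block the D3 change was 0.46 (adjusted p 0.0157), past the adjusted p and under 1.5-fold. Without mouse 34 the change was 0.28 (adjusted p 0.205). With the scanner software's background-subtracted signals it was 0.99 at D3, with an adjusted p of 0.0918, or 0.0252 with slide as a block as well, where it passed both thresholds. Cd8b1 spread more widely, from 0.07 to 1.26 in D0 and from 0.73 to 1.35 in D3. Its change was 0.36, 0.42 and 0.42 (adjusted p 0.241 at D3), and the highest D0 mouse, at 1.26, stood well above the next at 0.69.

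Cd4 was the only gene of the 10 that was lower at D3. Its log2 ratio was 0.25, 0.04, 0.60, 0.47 and 0.64 in D0 and -0.22, -0.02, 0.34 and 0.19 in D3. Of the 4 D3 mice, 2 were below every D0 mouse and the others lay within the D0 range, so the groups overlapped. Its change was -0.27, -0.10 and -0.33 ± 0.14, with an adjusted p of 0.152 at D3. Within slides, Cd4 was lower at D3 by -0.27 on slide 1, -0.34 on slide 2 and -0.31 on slide 3. With slide as a block the D3 change was -0.29 with an adjusted p of 0.012, in a range of 0.012 to 0.918 over all alternatives, and it stayed under 1.5-fold. The dim Cd4 probe changed by -0.03 (adjusted p 0.803), and the red channel alone gave -0.17 (adjusted p 0.811).

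Taken within each mouse, Cd8a minus Cd4 was between 0.00 and 0.50 in D0, 0.28 and 0.83 in D1, 0.39 and 0.90 in D2, and 0.67 and 1.26 in D3. D3 and D0 did not overlap. For Cd8b1, the other chain of the dimer, the difference from Cd4 ran from -0.53 to 1.01 in D0 and from 0.54 to 1.38 in D3, and these overlapped. Both pairs were looked at after their values were known, so no test is given. Within slides the D3 shift of Cd8a minus Cd4 was 0.67, 0.88 and 0.47.

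**Figure D2:**
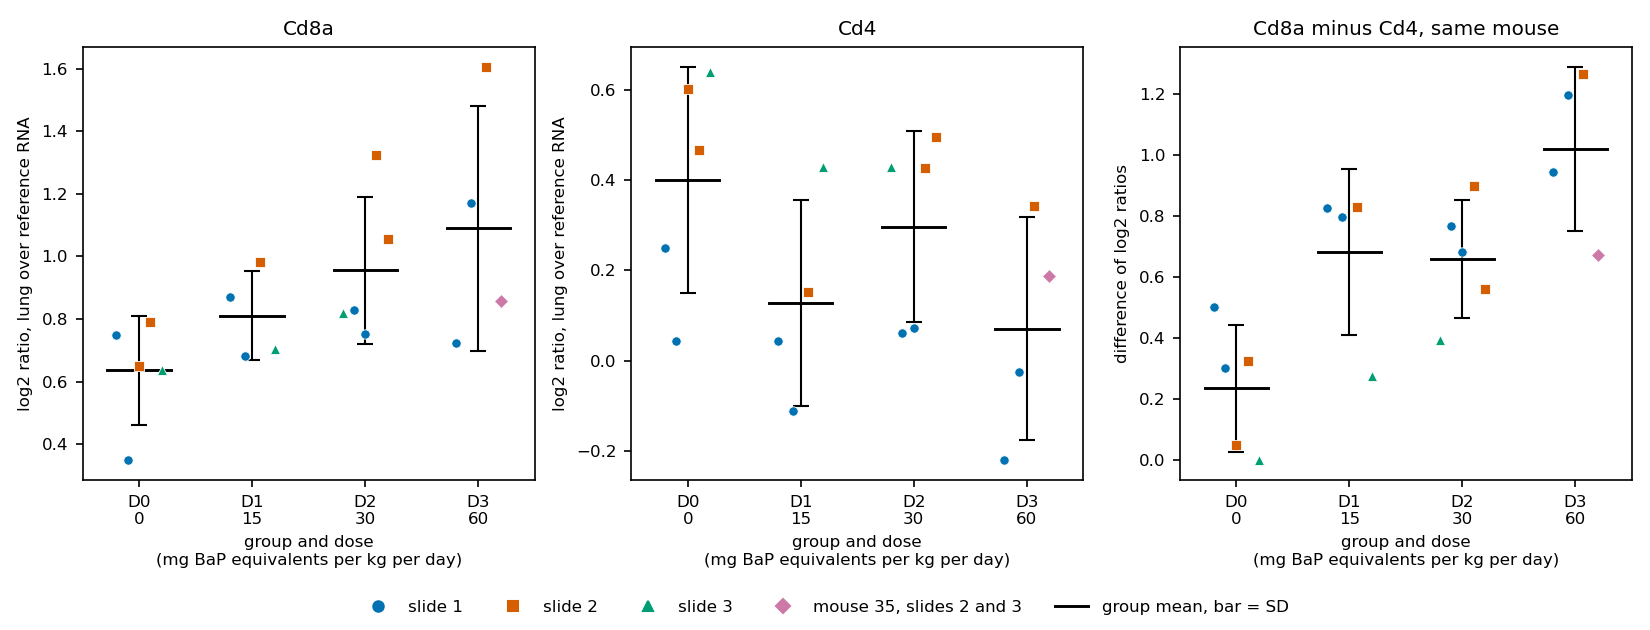
Log2 ratio of Cd8a, log2 ratio of Cd4, and their difference in the same mouse (vertical axes) by dose group, 1 point per mouse with marker by slide, with group mean and SD. The difference lies between 0.00 and 0.50 in the 5 D0 mice and between 0.67 and 1.26 in the 4 D3 mice.

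Il7r had the lowest adjusted p of the 10 genes at D3. Its log2 ratio was 1.91, 1.54, 1.93, 1.85 and 2.01 in D0 and 2.21, 2.04, 2.02 and 2.20 in D1. It was 2.11, 1.91, 2.11, 2.72 and 2.502 in D2 and 2.04, 2.38, 3.02 and 2.22 in D3. All D1 and all D3 mice were above every D0 mouse, as were 4 of the 5 D2 mice. The change was 0.27, 0.42 and 0.57 ± 0.17, and at D3 the adjusted p was 0.0366 at a fold of 1.48, just under the 1.5-fold line. The linear trend over dose was 0.56 from 0 to the top dose, with an adjusted p of 0.0464. With slide as a block the D3 change was 0.59 (adjusted p 0.0123), which passed both thresholds. Over all alternatives its adjusted p at D3 ran from 0.0123 to 0.82. Without mouse 34 the change was 0.37 (adjusted p 0.136), and without D0 mouse 2 it was 0.49 (adjusted p 0.0838). Leaving out 1 mouse at a time, Il7r missed the adjusted p in 6 of 18 cases (D0 mouse 1, 2, 3 or 4, or D3 mouse 32 or 34).

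Cd5, the inhibitory scavenger-type receptor, was at -1.37, -1.85, -1.46, -1.50 and -1.45 in D0 and at -1.14, -0.79, -0.63 and -1.58 in D3. Mouse 35 was as low as D0, and the other D3 mice were above every D0 mouse. Its D2 and D3 changes were 0.46 and 0.49 ± 0.17, with adjusted p of 0.166 and 0.0689. Without mouse 35 the D3 change was 0.67 (adjusted p 0.0144), and without mouse 34 it was 0.36 (adjusted p 0.214). Cd28 was 0.24 higher at D2 and 0.26 higher at D3 (adjusted p 0.243 and 0.116), and its D1 change was -0.09. Without D0 mouse 1 the D3 change of Cd28 was 0.34 (adjusted p 0.03). Lck, the kinase bound by the coreceptors, ran from -0.86 to -0.11 in D0 and from -0.99 to -0.05 in D3. By mouse, the D3 group of Lck thus covered the whole range of D0. Its change was -0.24, 0.09 and 0.00, with a 95% confidence interval of -0.33 to 0.34 at D3.

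**Figure D3:**
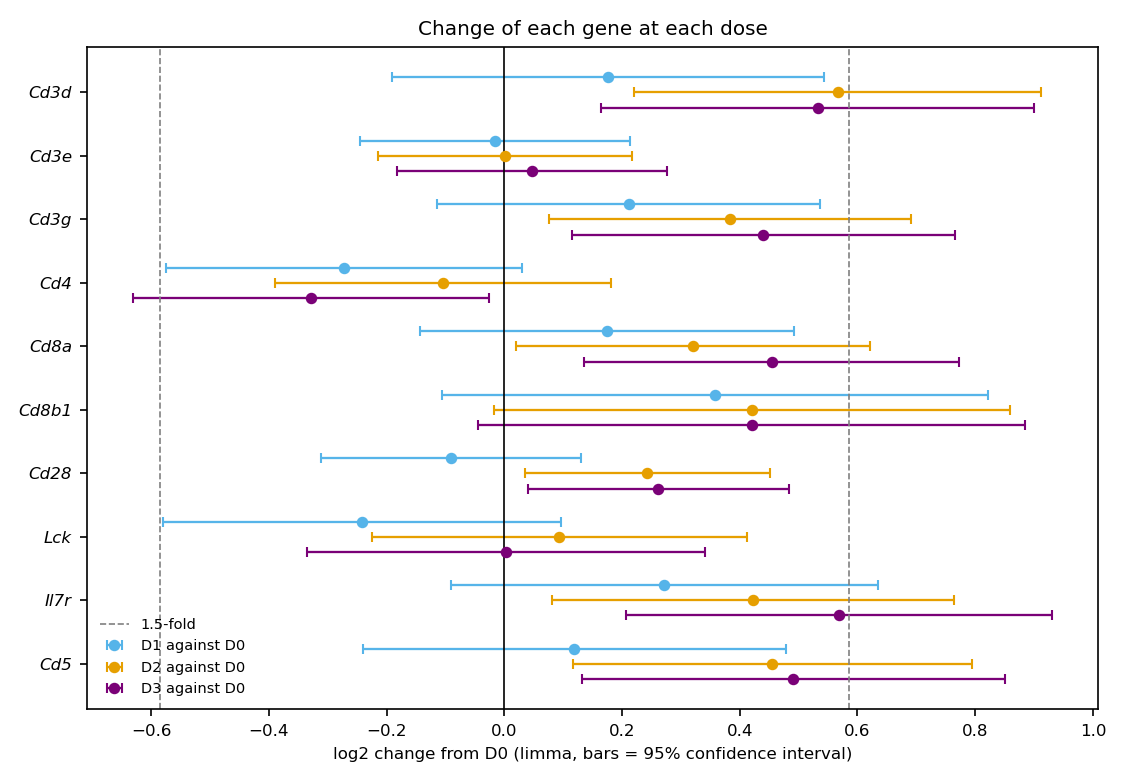
Log2 change from D0 (horizontal axis) for each gene (rows) at D1, D2 and D3 from the limma model over 18 mice, with bars for the 95% confidence interval and dashed lines at 1.5-fold. D3 intervals of Cd3d, Cd3g, Cd8a, Cd28, Il7r and Cd5 lie above 0, that of Cd4 lies below 0, and those of Cd3e and Lck are centred near 0.

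As a group, 0 of 10 genes passed both thresholds (adjusted p of at most 0.05 and 1.5-fold) at D1, D2 or D3, where 1.06%, 0.626% and 2.43% of all tested probes did. By limma's adjusted p alone, 0, 0 and 1 of them passed (Il7r), beside 4.74%, 2.09% and 12.4% of all probes. With slide as a block, 5 of 10 passed the adjusted p alone at D3 (Cd3d, Cd3g, Cd8a and Il7r higher, Cd4 lower), beside 18% of all probes, and 1 passed both thresholds (Il7r), beside 2.52%. At an unadjusted p under 0.05, 0, 6 and 6 were higher and 0, 0 and 1 were lower. Of all probes 10.4%, 7.87% and 13.1% were higher by that rule, and 9.41%, 6.87% and 13.1% lower. The 6 higher genes at D3 were Cd3d, Cd3g, Cd8a, Cd28, Il7r and Cd5. The ratio was above the D0 mean for 6, 9 and 9 of the 10 genes, with a median change of 0.15, 0.35 and 0.43 beside 0.0066, -0.0035 and -0.002 over all probes. Dosed mice stood above D0 mice with no overlap for Il7r at D1, Cd3d at D2, and Cd3d and Il7r at D3, so for 1, 1 and 2 of the 10 genes, beside 4.73%, 2.51% and 7.47% of all probes. The 10 genes moved together across mice and are not independent observations.

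Between neighbouring doses the genes were higher at D2 than at D1 in 10 of 10 cases, by 0.02 to 0.39 (median 0.17). At D3 against D2 they were higher in 6 of 10 (median 0.03). Of all probes 49.9% and 48.6% were above 0 in these steps. The count of 10 takes mouse 23 as D2, as labelled, and this mouse had the highest D2 ratio of Cd8b1. Placing it in D1 would raise the D1 mean of Cd8b1 and lower that of D2. The count with mouse 23 in D1 is not given. None of the 10 genes passed the adjusted p in either step in limma, and 0% and 0.181% of all probes did. At an unadjusted p under 0.05, 2 were higher from D1 to D2 and 0 from D2 to D3, beside 3.94% and 5.78% of all probes. For the linear trend, 1 of 10 passed the adjusted p alone (6.56% of all probes) and 0 passed both thresholds (1.53%). In the F test for any dose 0 of 10 passed, beside 7.79% of all probes.

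The mice of a dosed group differed among themselves. The median over the 10 genes of the change from the D0 mean was 0.75 in mouse 34 and 0.54 in mouse 32, but 0.13 in mouse 31 and 0.09 in mouse 35, all of D3. In D2 it ran from 0.11 to 0.60, in D1 from -0.03 to 0.30, and in D0 from -0.32 in mouse 2 to 0.17 in mouse 1. D0 mouse 2 was therefore the lowest vehicle animal, with 1 of the 10 genes above the D0 mean. Mouse 35 had 2 arrays, whose values for the 10 genes differed by -0.41 (Il7r) to 0.29 (Cd4), and these were averaged. Within slides, the median D3 change of the 10 genes was 0.30 on slide 1 (9 higher), 0.43 on slide 2 (7 higher) and -0.01 on slide 3 (5 higher). Slide 3 set 1 array of mouse 35 against 1 D0 mouse. Leaving out 1 mouse at a time, 0 of 10 genes passed the adjusted p at D3 in 5 of 18 cases (without D0 mouse 2, 3 or 4, or D3 mouse 32 or 34), 1 passed in 9 (Cd28 without D0 mouse 1, Il7r in the others), 2 in 1 (without D1 mouse 21) and 3 in 3 (without D2 mouse 29, or D3 mouse 31 or 35). Over these 18 cases 7.9% to 12.7% of all probes passed it. Without mouse 35, 3 genes passed both thresholds, namely Cd3d, Il7r and Cd5, beside 2.07% of all probes.

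Deviations of the genes from their group means were correlated over the 18 mice, which is a description in which all points share the reference RNA and the normalization. Pearson's r was 0.87 between Cd3d and Cd3g, 0.88 between Cd3d and Cd8a, 0.87 between Cd3d and Il7r, and 0.84 between Cd28 and Lck. With slide means removed as well, which was added after seeing the data, these were 0.85, 0.82, 0.84 and 0.85. The low values of Cd3e, Cd4 and Cd8b1 were higher with slide removed. Values for slide 1 or for the other slides use deviations from group means over all 18 mice. Slides 2 and 3 were pooled there with no slide mean removed, and in that pool the values of Cd4 and Cd8b1 stayed low. Cd3e with Cd3d was 0.25 over all mice and 0.72 with slide removed, and it was 0.75 in the 8 mice of slide 1 and 0.60 in the 10 of the other slides. Cd3e with Cd4 was -0.38 over all mice but 0.70 with slide removed, 0.82 on slide 1 and 0.42 on the others. On these other slides the pairs with Cd4 had a median r of 0.34, down to -0.03 with Cd3g, and the pairs with Cd8b1 a median of 0.23. Cd8b1 with Cd8a, its partner in the CD8 dimer, was 0.31 over all mice, 0.79 with slide removed, 0.82 on slide 1 and 0.16 on the others. Over all 45 pairs r ran from 0.52 to 0.91 (median 0.79) with slide removed, against -0.38 to 0.88 (median 0.62) without.

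**Figure D4:**
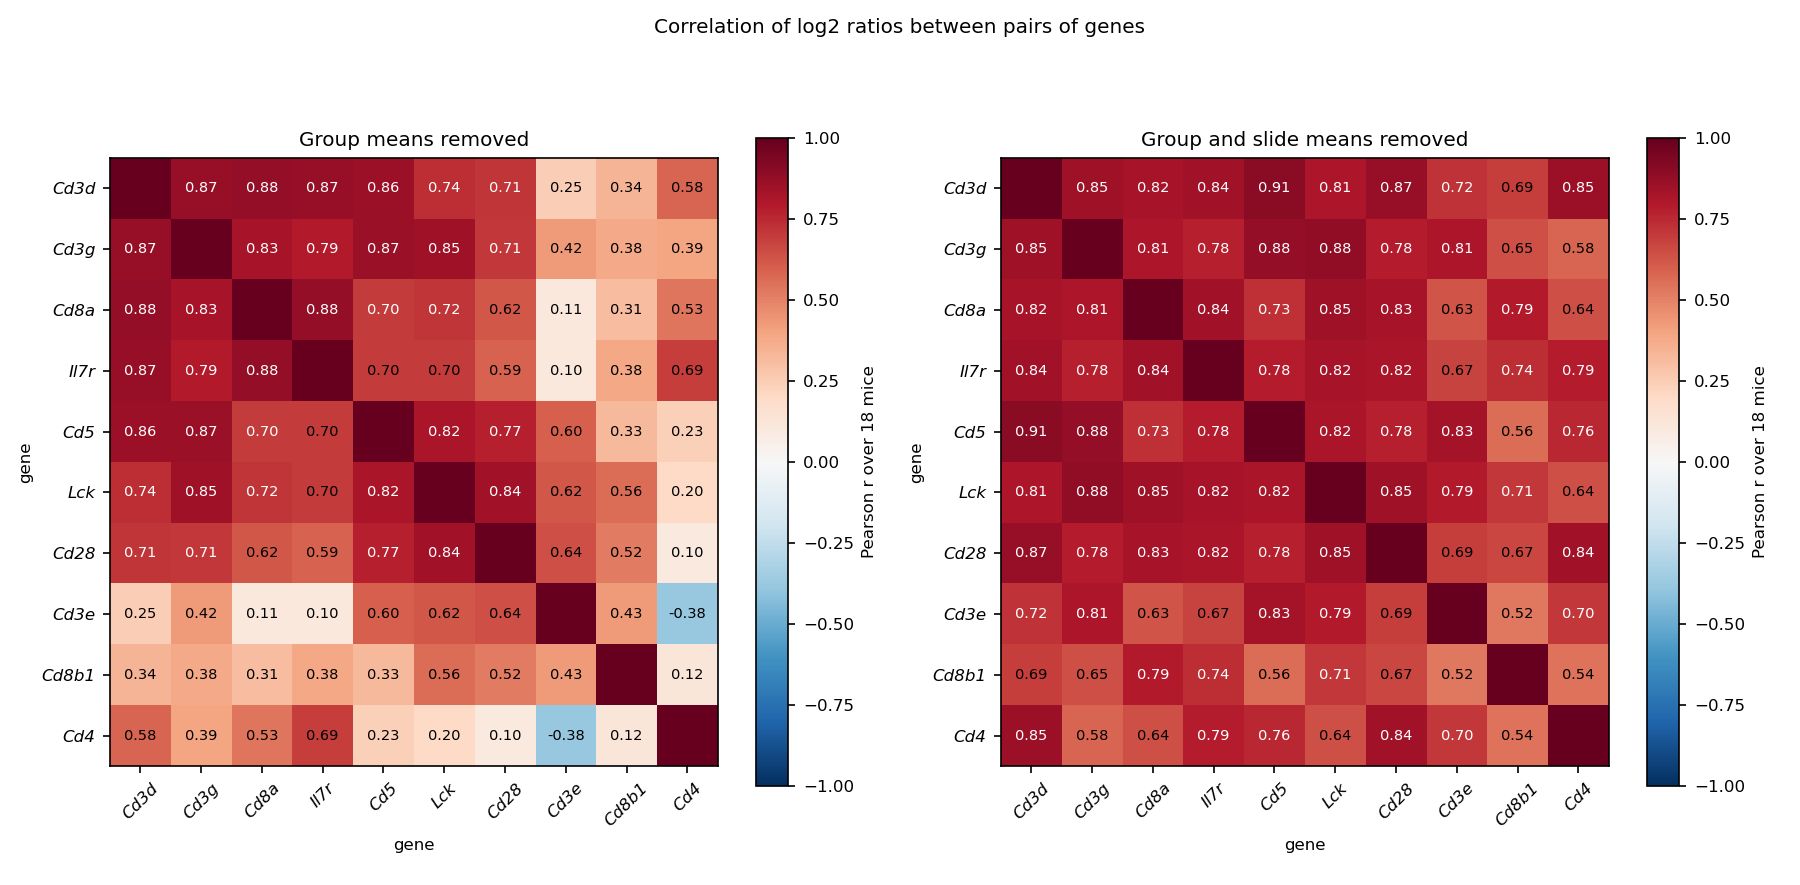
Pearson r over 18 mice between deviations from group means for each pair of the 10 genes (rows and columns), with colour from -1 to 1, and the same with slide means removed too (right). Cd3d, Cd3g, Cd8a, Il7r and Cd5 form a block of r from 0.70 to 0.88 on the left and 0.73 to 0.91 on the right, and Cd3e with Cd4 is -0.38 on the left and 0.70 on the right.

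Outside the 10 genes, the symbols whose deviations were most like the mean of Cd3d, Cd3e and Cd3g were Ccr7 (r = 0.91), Skap1 (0.90), Kif21b (0.89), Hcst (0.89), Arhgap4 (0.88), Fcho1 (0.88), Ms4a4c (0.88) and Dok3 (0.87). Ccr7 guides naive T cells into lymphoid tissue and Skap1 is an adaptor of T cell receptor signalling, while Hcst is an adaptor shared by natural killer and T cells, Dok3 an adaptor best known in B and myeloid cells, and Kif21b a kinesin motor. Against the mean of Cd3d and Cd3g alone, the 8 closest symbols were Ccr7 (0.92), Dok3 (0.89), Tspan32 (0.88), Hcst (0.88), Arhgap9 (0.88), Ms4a4c (0.88), Gmfg (0.87) and Xkrx (0.87). Without D0 mouse 2 and D3 mouse 34, the pair farthest from the median, the r of the first 8 symbols was 0.82 to 0.87. With slide means removed the r of Ccr7 was 0.91, that of Skap1 was 0.91 and that of Ms4a4c, the lowest of those 8, was 0.86. Ccr7 changed by 0.21, 0.73 and 0.50 over the doses (adjusted p 0.158 at D3), and none of the symbols in either search passed the adjusted p at D3, where the lowest was 0.0794 for Ms4a4c.

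Other genes of T cells were counted by list. Of 22 tested genes of T cell receptor signalling, 1 rose past both thresholds at D1 and 0 did so at D2 and D3, and the median change at D3 was 0.15. The gene at D1 was Prkcq, the protein kinase C of T cells, at 0.59 (adjusted p 0.0348), and it was 0.45 at D3 (adjusted p 0.0654). Zap70, the kinase recruited to the CD3 chains, was at 0.04 (adjusted p 0.823), the adaptor Lat at 0.07 (0.795) and Ptprc, the CD45 phosphatase of all leukocytes, at -0.06 (0.85) at D3. The 1 gene of this list past the adjusted p alone at D3 was Fyn, an LCK-related kinase, at 0.32 (adjusted p 0.00764). The probe of Cd247, the zeta chain, did not pass the filter. Of 16 tested T cell surface and costimulation genes 0 passed both thresholds at any dose, and 11 were above D0 at D3. By the adjusted p alone, Slamf1 was higher at D2 (0.53, adjusted p 0.0269) and Tnfrsf18 at D3 (0.38, adjusted p 0.0306).

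Among T cell transcription factors, Tbx21, which directs type 1 and cytotoxic programmes, fell by 0.71 (adjusted p 0.00391) at D3. Its relative Eomes (-0.55, adjusted p 0.00162) and Id3 (-0.45, adjusted p 0.00224) were lower past the adjusted p alone. Tcf7 was at 0.25 (adjusted p 0.118). Of 10 naive T cell and homing genes 0 passed both thresholds, and S1pr1, the receptor for exit from lymphoid tissue, was lower past the adjusted p alone (-0.39, adjusted p 0.0142). The r with the mean of Cd3d, Cd3e and Cd3g was 0.41 for Tbx21, 0.58 for Eomes, -0.34 for Id3 and 0.20 for S1pr1. Whether T cells were the source of these signals in whole lung was not tested. Of 15 genes around interleukin-7 and the shared γ chain, 0 passed both thresholds. Il2rg, the shared chain that pairs with the Il7r product, was at 0.56 (adjusted p 0.0105), just under 1.5-fold, and passed the adjusted p alone. So did Il15, higher at 0.32 (adjusted p 0.0368), and its receptor chain Il15ra, lower at -0.30 (adjusted p 0.0266). Il7 itself was at -0.11 (adjusted p 0.63).

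Markers of other cells moved beside these genes, and their part in the changes of the T cell genes was not tested. Of 10 tested natural killer and cytotoxic markers 2, 2 and 3 fell past both thresholds at D1, D2 and D3, and 0 of 10 were above D0 at any dose. Gzma fell by 3.07 (adjusted p 0.00016), Ccl5 fell by 1.68 (0.000715) and Prf1 fell by 0.66 (0.00134) at D3. Ncr1, which defines natural killer cells, was at -0.38 (adjusted p 0.0895). The mean of these 10 markers per mouse lay from -0.33 to 0.47 about the D0 mean in D0 and from -0.98 to -0.60 in D3. Over the same mice the mean of the 10 T cell genes lay from -0.27 to 0.21 in D0 and from 0.02 to 0.64 in D3.

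Of 9 tested neutrophil markers 1, 1 and 5 rose past both thresholds. At D3 S100a8 rose by 1.77 (adjusted p 0.00178), Mmp8 by 1.49, Retnlg by 1.30 and Cxcr2 by 0.92. Csf3r, whose probe was the brightest of the list, was lower at D1 (-0.37, adjusted p 0.0445) and at D3 (-0.46, adjusted p 0.00655), past the adjusted p alone. The mean log2 change of these markers from the D0 mean ran, per mouse, from -0.29 to 0.56 in D0 and from 0.39 to 1.77 in D3 and was highest in mouse 34, which was also the highest mouse of the T cell genes. Of 8 tested B cell markers 0 passed at any dose, and 1 did at D2 with slide as a block. At D2, 7 of the 8 were above D0, with a median change of 0.54, and 4 were higher at an unadjusted p under 0.05, while at D3 2 of 8 were above D0 (median change -0.07). Their mean log2 change from the D0 mean ran, per mouse, from -0.75 to 0.35 in D0, -0.06 to 0.36 in D1, -0.11 to 0.90 in D2 and -0.29 to 0.31 in D3. It was highest in D2 mice 29 (0.90) and 30 (0.84), which were also the highest D2 mice of the T cell genes. D0 mouse 2, the lowest vehicle mouse of the T cell genes, was also the lowest for the B cell markers, at -0.75.

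**Figure D5:**
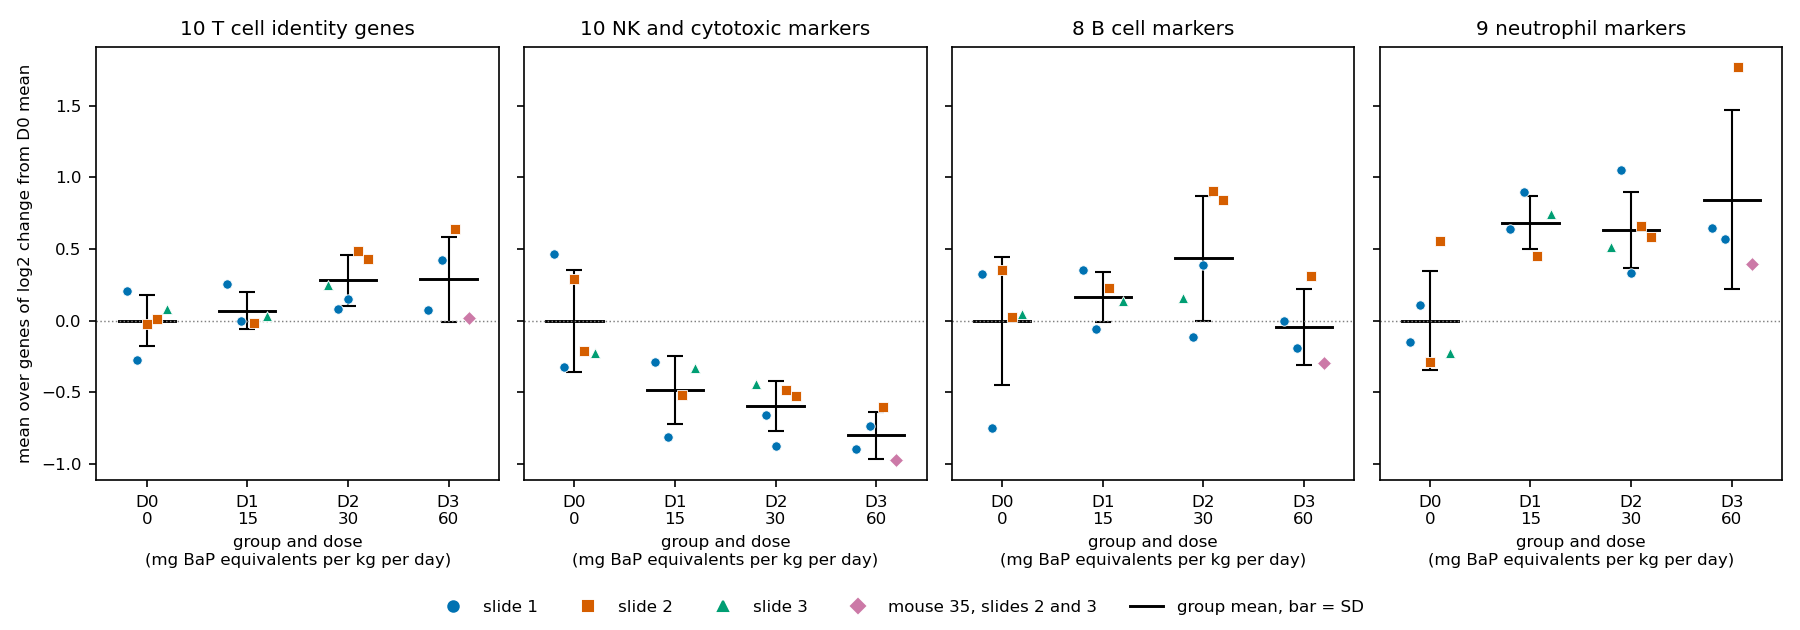
Mean over genes of the log2 change from the D0 mean (vertical axis) for the T cell identity genes and for natural killer and cytotoxic, B cell and neutrophil markers, by dose group, 1 point per mouse with marker by slide, with group mean and SD. In D3 the T cell genes lie from 0.02 to 0.64, and the natural killer and cytotoxic markers from -0.98 to -0.60.

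Among the remaining cell type lists, Cd209a fell by 0.82 at D3 (adjusted p 0.00141) and Clec9a fell by 0.78 at D1 (adjusted p 0.0199) of 10 macrophage and dendritic cell markers. The median change of these 10 at D3 was -0.13. Above D0 were 2 of them, 1 at an unadjusted limma p under 0.05. Il1rl1 fell by 0.80 at D3 (adjusted p 0.000934) of 4 tested markers of group 2 innate lymphoid cells. Of these 4 markers 1 was above D0 at D3, and 1 was higher at D2 past the adjusted p alone. Of the thymocyte markers, Rag1, Rag2, Ptcra and Arpp21 had red signals too dim to test, and Dntt and Cd1d1 were tested. Cd1d1 was lower at D2 (-0.46, adjusted p 0.0041) and D3 (-0.40, adjusted p 0.00538), past the adjusted p alone, and Dntt was at -0.18 at D3 (adjusted p 0.469). Of the lymph node and high endothelial markers, Glycam1 and Chst4 were too dim to test, and 0 of 4 tested passed. Of 4 red blood cell markers 0 passed. Of 10 lung markers Pecam1, an endothelial gene, rose by 0.66 at D3 (adjusted p 0.00673), and the alveolar gene Sftpc was at a log2 ratio of 7.73 in D0, far above the reference RNA. Of these 10 markers 4 were above D0 at D3, with a median change of -0.29.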

How the data were processed

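Lung RNA of 18 mice was measured on 19 two-colour arrays, with the lung sample in red (Cy5) and the reference RNA in green (Cy3). Per the file headers, the deposited intensity values are median spot signals from Feature Extraction 11.0.1.1, not normalized. The headers name another scanner model and software release than the methods do, and the headers were followed. A separate deposited table holds log2 ratios normalized by the authors (LOWESS on median signals, per the methods). It correlated with the ratios computed here at 0.995 to 0.998 per array, its columns have medians of -0.0348 to -0.0173, and it was used as an alternative.

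Median signals without background subtraction were normalized within arrays by loess (span 0.3) in limma 3.58.1 (R 4.3.3), with 171 to 323 outlier spots per array and 3671 control spots left out and the spots of a probe averaged as log2 ratios. No spot was saturated, and 54.5 to 64.7% of spots were well above background in red and 47 to 61.6% in green. The 2 arrays of mouse 35 of D3, taken as 1 animal from their shared number, were averaged. Over all probes they differed by an SD of 0.191, against 0.288 to 0.323 between either of them and another D3 mouse. Mouse 23 is labelled D2, although its number lies among those of D1 and the methods give D1 1 mouse more, and it was kept in D2. Of 55681 probes, 30999 were tested: those well above background in red in at least 4 mice of 1 group and with no missing value (80 probes had one). Symbols came from matching 21465 of 22765 RefSeq identifiers to the GRCm38.p6 gene table, without versions. The array's own annotation names build mm9, so no coordinates of probes are given.

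A single model over all 18 mice (lmFit, eBayes, Benjamini-Hochberg over all tested probes) gave the two-sided p-values of the dose comparisons, and the F test. Calls were made at an adjusted p of at most 0.05 and 1.5-fold. The linear trend came from a separate regression on dose over the same mice, and each alternative was fitted anew. The p-values measure the spread between mice, and the number of arrays limits the precision. Each gene is described by its tested probe with the brightest red signal. From 14 other fixed lists, genes past both thresholds at any dose are named, up to 4 per list by the size of the D3 change, besides preset markers such as Zap70, Ccr7, Il7 and Ncr1. Some genes that this rule names are not reported here. The likeness search took the 8 symbols with the highest r to the mean of the CD3 genes. The genes and lists were chosen with earlier results of these data known. Alternatives changed the background correction, normalization, filter, slide block, arrays and mice used, and probe choice. Fits were tested on simulated data. Upstream sequences came from the RefSeq promoter table of GRCm38.p6.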

Additional observations from a re-analysis of the deposited data

Results flagged for a closer look

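Of 40 sets of values (10 genes in each of 4 groups), 3 had a mouse whose gap to its nearest neighbour exceeded Dixon's 95% critical value, and chance alone would mark about 1 in 20. The log2 ratio of Cd3d in D0 mouse 2 was 1.79, with the nearest vehicle mouse at 2.34. That of Cd5 in D0 mouse 2 was -1.85, with the nearest at -1.50. That of Cd3e in D0 mouse 1 was -0.59, with the nearest at -0.84. Both of these values of mouse 2 were low, and without that mouse the D3 change of Cd3d was 0.41 (adjusted p 0.123 in limma) and that of Cd5 was 0.41 (adjusted p 0.144).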

How the results depend on the processing

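The direction held in 1250 of 1280 values (10 genes, the 3 doses and the trend, 32 alternatives), and 19 of these newly passed both thresholds. By the adjusted p alone, the number of genes past it at D3 (1 as reported) was 0 with processed signals, median centring or array 35.2 alone, 2 with the red channel alone or the deposited log2 table, 3 with normexp (which here used median signals with the median local background) or array 35.1 alone, and 5 with slide as a block. Of all probes 12.4% passed as reported, 0.316% with median centring, 12.4% with processed signals, 11.8% and 12.5% with array 35.2 or 35.1 alone, 10.7% with the red channel alone, 11.4% with the deposited table, 12.7% with normexp and 18% with slide as a block. For the trend (1 as reported) it was 0 with processed signals, median centring, the deposited table, no filter on dim probes or array 35.2 alone, 2 with normexp or the red channel alone, and 3 with slide as a block or array 35.1 alone. With slide as a block 1 gene passed the adjusted p at D2, 2 passed the F test and 1 passed both thresholds at D3, as 1 did at D3 and 2 for the trend with array 35.1 alone. With processed signals and slide as a block, an alternative chosen after seeing the data, 1 gene passed the adjusted p at D1, 1 at D2, 3 at D3, 2 for the trend and 2 in the F test, and 1, 1 and 2 passed both thresholds at D2, D3 and for the trend. Leaving out each mouse in turn gave 0 to 3 genes past both thresholds at D3 and 0 to 2 for the trend, 0 to 3 past the adjusted p at D3 and for the trend, and 0 to 1 in the F test. The causes were not tested.

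Some changes turned sign. Cd3e turned at D2 with processed signals (-0.0321, with or without slide as a block), the red channel alone (-0.0053) and the deposited table (-0.0065), and at D1 with median centring (0.29). Median centring, under which the median change of all probes was 0.17, 0.12 and 0.06 at D1, D2 and D3, also turned Cd28 (0.12) and Lck (0.0858) at D1 and Cd4 (0.0899) at D2, all below that median. Lck turned at D3 with the red channel alone (-0.038), slide as a block (-0.0038), processed signals with slide as a block (-0.0049) and array 35.1 alone (-0.0174). With single mice left out, Cd3e ranged from -0.0718 to 0.0528 at D1, from -0.0332 to 0.0585 at D2 and from -0.0487 to 0.1387 at D3, Lck from -0.1438 to 0.1684 at D3, and Cd5 from -0.0133 to 0.1983 at D1. The trend ranged from -0.0405 to 0.1318 for Cd3e and from -0.0413 to 0.2458 for Lck. The groups share no mouse numbers, so none were paired by number, and slide, which held every dose group, was the block. With slide means removed, the r of Cd3e with Cd4 turned from -0.38 to 0.70. Ratios of Il7r and Cd8a are limited by a reference signal near background.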
